A study of Mus musculus with 12 samples.

Results

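The genes described here encode subunits of the receptors for glutamate, GABA and glycine in the cerebral hemisphere of E16.5 mouse embryos, a stage of late cortical neurogenesis. They were taken as all probe sets of the array whose platform gene symbol begins with Gria, Grik, Gabr, Gabbr, Glra or Glrb, or with Grin, Grid or Grm followed by a digit. This gave 33 probe sets for 26 genes, out of 12422 probe sets (controls left out) and 8251 genes with a symbol of their own. Subunits outside this set were not analysed here. Oligonucleotide arrays measured mRNA in 6 groups of 2 arrays each, which are the ventral, medial, dorsal, rostral and occipital piece of the cortical hemisphere and the undivided hemisphere. The sample titles name a rostral piece where the labels' protocol lists a lateral one, and the titles were followed. No genotype or treatment is labelled for any group, and the strain and the number of embryos per sample are not given in the labels. Per the labels' protocol the replicates come from independent dissections.

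Glutamate opens the tetrameric AMPA, kainate and NMDA channels, which pass cations, and also acts on slower metabotropic receptors that signal through G proteins. GABA and glycine open pentameric chloride channels, and GABA acts in addition on the G protein-coupled GABA-B receptor. In the embryonic cortex neurons carry such receptors before most synapses form, and the chloride channels depolarise young neurons. Because these are pieces of tissue, fewer cells of a type and less RNA per cell cannot be told apart in any value below.

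The deposited value of a probe set is its average difference, the mean signal of the matching probes minus that of the mismatch probes, so it can be negative. A floor of 693.5, the root mean square over the values below 0, was used, and 1387, which is 2 times the floor, as the background limit. A probe set is called above background in a group when both of its arrays exceed that limit. Across the arrays 39.1% to 41.7% of probe sets exceeded the limit. With 2 arrays per group, precision is limited throughout.

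The rostral and occipital arrays stood apart in their pairing. Over the 5832 probe sets tested, rostral replicate 2 correlated at r = 0.963 with occipital replicate 1 and at r = 0.934 with rostral replicate 1, and probe sets are not independent replicates. The array most like each one outside its own group shared its replicate number in 10 of 12 cases, and only rostral replicate 2 and occipital replicate 1, each closest to the other, broke this pattern. The called differences below are therefore given with and without the rostral and occipital arrays.

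At this stage 11 of the 33 receptor probe sets were above background in at least 1 group, and 18 with the limit lowered to the floor itself. With the limit as set, 6 were above it in all 6 groups (18.2%, against 31.7% of all probe sets), 5 in some groups and 22 in none, and 10 never exceeded the floor on any array. By gene, 5 of 26 were above background in all groups and 8 in at least 1. Above background in at least 1 group were 33.3% of the receptor probe sets, against 43.3% of all probe sets, and the shares were not tested against each other. Counted by group, 11 receptor probe sets were above background in the ventral piece, 8 in the medial, 7 in the dorsal, 10 each in the rostral and occipital pieces, and 9 in the hemisphere. These are 33.3%, 24.2%, 21.2%, 30.3%, 30.3% and 27.3% of the receptor probe sets, against 37.7%, 37.8%, 37.6%, 37.5%, 38.1% and 35.8% of all probe sets in the same order of groups.

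**Figure D1:**
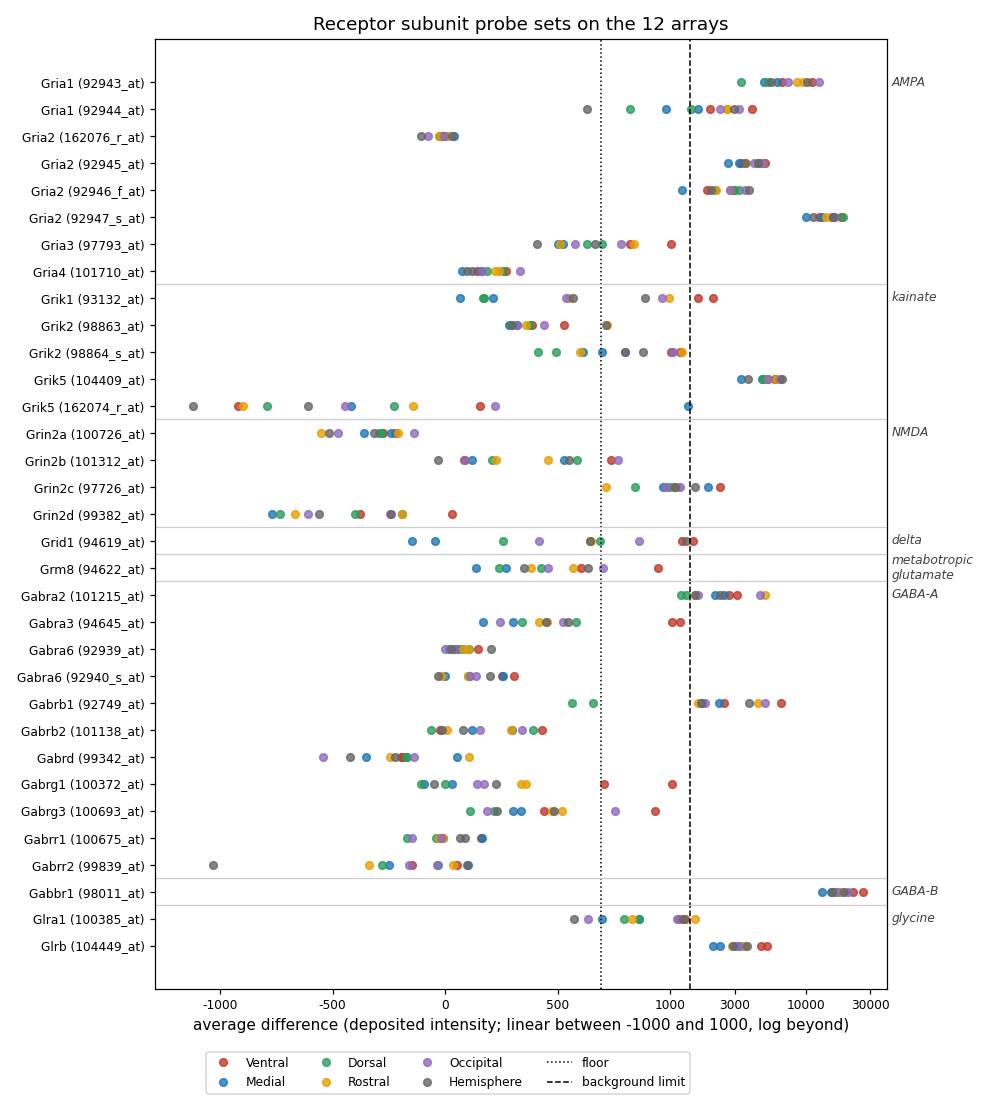
Average difference of the 33 receptor subunit probe sets on the 12 arrays, 1 point per array coloured by group, on an x axis that is linear around 0 and logarithmic at the outer values. The dotted line is the floor (693.5) and the dashed line the background limit (1387), and 22 probe sets exceed the limit on both arrays of no group.

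Among the AMPA receptor genes, Gria1 and Gria2 were above background and Gria3 and Gria4 were not. Gria2 encodes GluA2, the subunit that keeps most AMPA channels nearly impermeable to calcium. Its probe set 92947_s_at read 12576 and 18176 in the ventral piece, 10134.5 and 13129.8 in the medial, 16289.7 and 18779.9 in the dorsal, 14159 and 15304 in the rostral, 16070.3 and 16284 in the occipital piece, and 11344.5 and 15972 in the hemisphere. The medial piece was lowest by its mean, and its arrays overlapped those of the ventral piece and of the hemisphere. The probe set 92945_at of the same gene read 3307.5 and 5012 in the ventral piece, 2656 and 3217 in the medial, 4563 and 4442 in the dorsal, 4631.5 and 3624 in the rostral, 4180.1 and 4744.5 in the occipital piece, and 4410.0 and 3573.5 in the hemisphere. On that probe set both medial arrays lay below all arrays of the other groups. A further probe set, 92946_f_at, whose suffix marks probes shared within a gene family, ran from 1225 to 3785 and was above background in all groups but the medial piece. The fourth, 162076_r_at, never exceeded 39.6.

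Gria1 encodes GluA1, the subunit whose insertion at synapses changes with activity. Its probe set 92943_at read 6639 and 11113 in the ventral piece, 4913 and 6146 in the medial, 3338 and 5296 in the dorsal, 8638 and 9509 in the rostral, 7388.5 and 12483 in the occipital piece, and 5528 and 10176 in the hemisphere. The dorsal and medial arrays were the low ones among the regions. In all 6 groups replicate 2 exceeded replicate 1, as also on 92944_at, on 92947_s_at of Gria2 and for Gabbr1. The second probe set, 92944_at, ran from 631 to 4043 and was above background in the ventral, rostral and occipital pieces. Gria3 and Gria4, which encode the remaining AMPA subunits, did not exceed 1014 and 332 on any array.

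Of the kainate receptor genes, Grik5 was above background everywhere and Grik1 in the ventral piece alone by this limit, while Grik2 was above it in no group. Grik5 encodes GluK5, a high-affinity subunit that forms channels only together with GluK1, GluK2 or GluK3. On 104409_at it read 5938 and 5932 in the ventral piece, 3312 and 4757 in the medial, 4806 and 5054.5 in the dorsal, 5251 and 6040.2 in the rostral, 5239 and 6491 in the occipital piece, and 3762 and 6721 in the hemisphere. Its medial arrays lay below all arrays of the other 4 regions, and the hemisphere arrays spanned almost the whole range. Its other probe set, 162074_r_at, exceeded the floor on 1 array, medial replicate 2, at 1345. Grik2, which encodes GluK2, ran from 282 to 719 on 98863_at and from 410 to 1226 on 98864_s_at.

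The set held 4 NMDA receptor genes (Grin2a to Grin2d, without Grin1), 1 delta and 1 metabotropic receptor gene, and none was above background in any group. A probe set under the limit does not show that the mRNA is absent. For Gria2, 1 probe set never exceeded 39.6 while others were above background. Grin2b encodes GluN2B, the NMDA subunit known as the main GluN2 form of the embryonic forebrain, and its probe set exceeded the floor on 2 of 12 arrays, ventral replicate 2 at 734 and occipital replicate 2 at 767. Its 6 replicate 2 arrays ran from 456 to 767, and its 6 replicate 1 arrays from -29.9 to 227, so the replicate 2 arrays of every group lay above all replicate 1 arrays. It was the only receptor probe set of which the replicate 2 and the replicate 1 arrays did not overlap. That is 3.03% of the 33, not more than the 4.37% of all probe sets. Grin2c, which encodes a subunit best known from the cerebellum, ran from 714 to 2337. It exceeded the limit on 3 arrays, which were replicate 2 of the ventral piece, the medial piece and the hemisphere. Grin2a and Grin2d had no value above 28.8. Grid1, a delta receptor gene, exceeded the limit on 1 array, and Grm8, which encodes a presynaptic metabotropic receptor, on none.

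Of 10 GABA-A receptor genes, Gabra2 and Gabrb1 were above background in every group but the dorsal piece, and the other 8 in no group. They encode an alpha and a beta subunit, the kinds that form the GABA binding site between them. Gabra2 read 2726 and 3128.5 in the ventral piece, 2147 and 2479 in the medial, 1203 and 1294 in the dorsal, 5047 and 1532 in the rostral, 1610.0 and 4560.2 in the occipital piece, and 1529.5 and 2322.5 in the hemisphere. Gabrb1 read 2500.4 and 6603 in the ventral piece, 1719.6 and 2269.8 in the medial, 561 and 657.5 in the dorsal, 4468 and 1597 in the rostral, 1796 and 5013 in the occipital piece, and 1677 and 3833 in the hemisphere. The dorsal arrays of both genes lay below all arrays of the other groups, and those of Gabrb1 were under the floor. Of the remaining 8, Gabra3, Gabrg1 and Gabrg3 exceeded the floor on 2 arrays each, and Gabra6, Gabrb2, Gabrd, Gabrr1 and Gabrr2 on none. Gabra6 is known from cerebellar granule cells, and Gabrr1 and Gabrr2 encode the rho subunits of the retina.

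In Gabra2 and Gabrb1 the rostral and occipital replicates disagreed. Rostral replicate 1 and occipital replicate 2 were high for both genes, at 5047 and 4560.2 for Gabra2 and at 4468 and 5013 for Gabrb1, while rostral replicate 2 and occipital replicate 1 read 1532 and 1610.0 for Gabra2 and 1597 and 1796 for Gabrb1. On the log2 scale the rostral minus occipital difference of Gabra2 was 1.65 in replicate 1 and -1.57 in replicate 2, and that of Gabrb1 was 1.31 and -1.65. Such a reversal with more than 1 log2 unit in each replicate was found for 2 of the 12 receptor probe sets that were tested and for 1.25% of all tested probe sets. The rostral and the occipital mean of these genes therefore each average unlike values.

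Gabbr1 encodes the subunit of the GABA-B receptor that binds GABA, and Glrb the beta subunit of the glycine receptor, which ties the receptor to the scaffold gephyrin. Both were above background on all 12 arrays. Gabbr1 read 22302 and 26428.5 in the ventral piece, 13165 and 15378 in the medial, 16138 and 18220.2 in the dorsal, 17140.2 and 18501.5 in the rostral, 17047 and 20552 in the occipital piece, and 15561 and 19355 in the hemisphere. Glrb read 4689 and 5190.4 in the ventral piece, 2070.3 and 2308 in the medial, 3242.5 and 3485 in the dorsal, 3576 and 2852 in the rostral, 3213.5 and 3041 in the occipital piece, and 3679 and 2892 in the hemisphere. In both genes the ventral arrays were above, and the medial arrays below, all arrays of the other regions. Glra1, which encodes the alpha subunit of adult spinal glycine receptors, ran from 573 to 1523 and exceeded the limit on 1 array, rostral replicate 2.

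**Figure D2:**
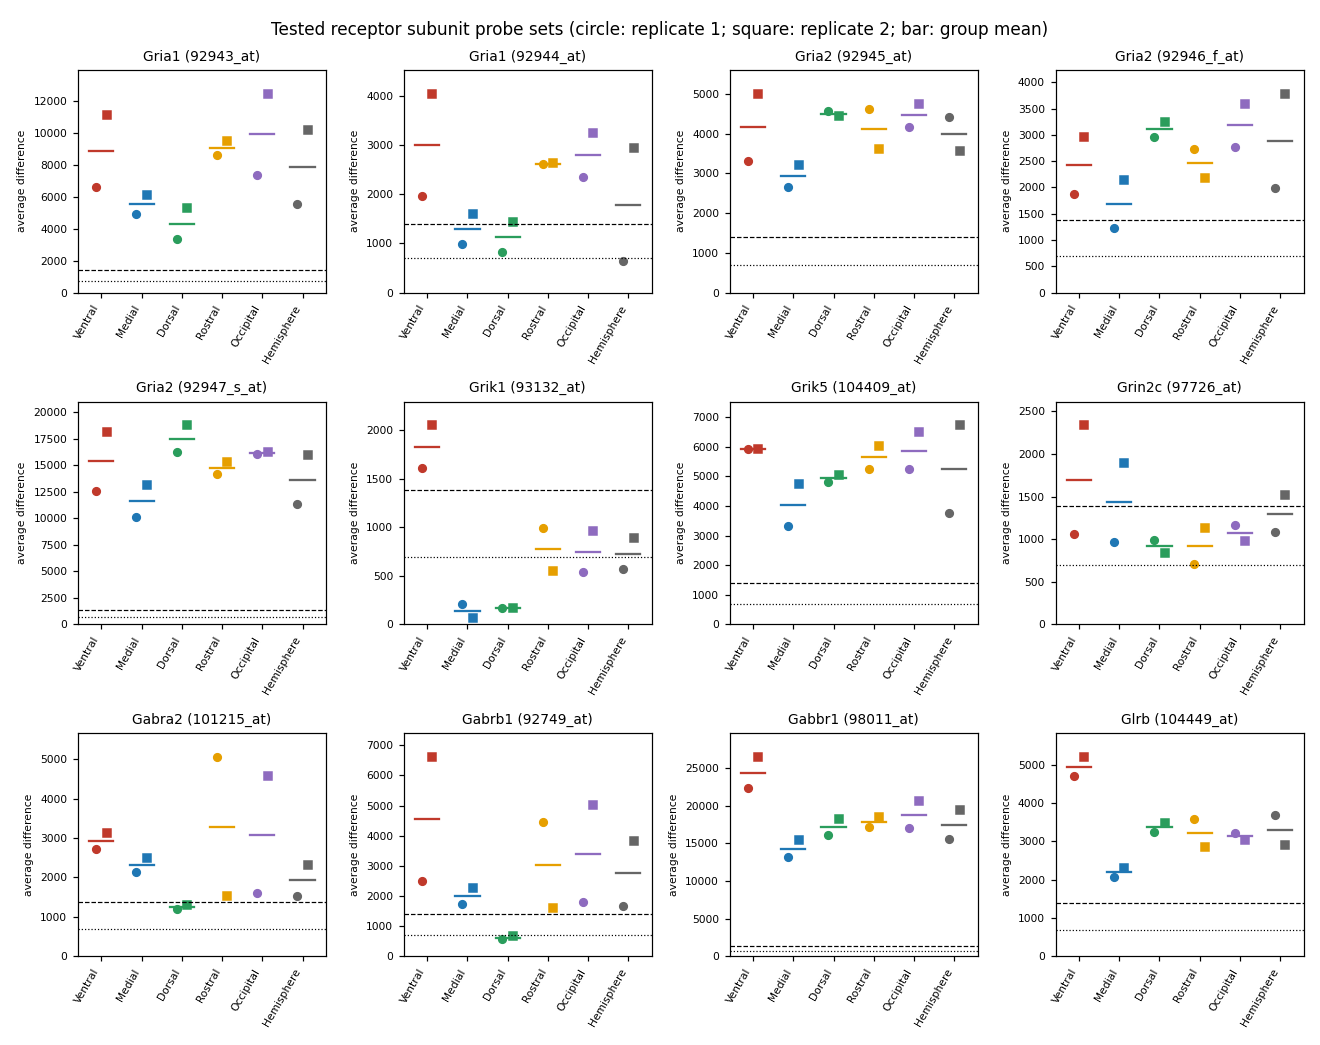
Average difference (linear scale) of the 12 tested receptor probe sets by group, with circles for replicate 1, squares for replicate 2 and a bar at the group mean, and the floor and the background limit as dotted and dashed lines. Grik1 and Glrb are highest in the ventral piece, and for Gabra2 and Gabrb1 the rostral and occipital replicates lie far apart in opposite orders.

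A test was made for probe sets above 1387 on at least 2 of the 12 arrays, whichever their groups, and 12 of the 33 receptor probe sets, from 9 genes, met this. The moderated tests of the limma package were used on log2 of the floored values, with p-values adjusted over all 5832 probe sets tested and called at 0.05. Each region was compared with the plain mean of the other 4 regions, and these comparisons share arrays. The lists of genes named below were chosen with earlier results of these data known.

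In the ventral piece Grik1 and Glrb rose. Grik1 encodes GluK1, the kainate receptor subunit found on many inhibitory interneurons. It read 1611 and 2049.8 on the ventral arrays, against 213 and 63.8 in the medial, 169 and 170.1 in the dorsal, 996 and 550.3 in the rostral and 537 and 961 in the occipital piece, and 568 and 888 in the hemisphere. The ventral arrays lay above all others, and the medial and dorsal arrays were the lowest, all under the floor. The mean was 1831 ± 310.2 (SD, n = 2) in the ventral piece and 458 ± 366 (SD, n = 8) in the other regions, a log2 difference of 1.27 ± 0.19 (SE, limma adjusted p = 0.00517). The floor applied to 6 of the 8 arrays of the other regions, so this difference depends on it: it was 1.85 with the floor at 0.5 times and 0.39 (adjusted p = 0.0523) with the floor at 2 times its value. Grik1 met the filter through its ventral arrays alone, so it had to differ. Without a filter its limma adjusted p was 0.0261. Values set to the floor have no spread, so neither p-value can serve as support for a ventral rise of Grik1.

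Glrb averaged 4939.9 ± 354 (SD, n = 2) in the ventral piece and 2974 ± 539 (SD, n = 8) in the other regions, 1.69-fold higher in the ventral piece by the fit (log2 0.75 ± 0.15 SE, limma adjusted p = 0.0144). Unlike Grik1 it had no array at the floor, and its difference was the same with each floor. Without the rostral and occipital arrays both genes stayed past the threshold, Grik1 at 1.39 ± 0.17 (limma adjusted p = 0.00575) and Glrb at 0.86 ± 0.16 (0.0222). Without ventral replicate 1 the adjusted p was 0.0434 for Grik1 and 0.105 for Glrb, and without ventral replicate 2 it was 0.0783 and 0.153. Of the 12 receptor probe sets tested, 2 rose and 0 fell in limma, against 4.25% and 5.54% of all tested probe sets (9.79% in either direction). Since Grik1 entered the test through its ventral values, only Glrb of these 2 was not fixed by the filter. At an unadjusted p under 0.05 they were 3 and 0, against 9.83% and 13.2% of all.

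The third of these was Gabbr1. It averaged 24365 ± 2918 (SD, n = 2) in the ventral piece and 17018 ± 2219 (SD, n = 8) in the other regions, a log2 difference of 0.52 ± 0.15 (SE, limma adjusted p = 0.0643), which did not pass. It passed with the floor at 2 times its value (0.0469), with trended and robust variances (0.0301) and with replicate number as a block (0.0098). The replicate numbers do not pair the rostral and occipital arrays. The AMPA receptor gene Gria2 differed little on each of its 3 tested probe sets, by 0.03, 0.05 and -0.08, signs that change with single arrays left out, with 95% intervals that together ran from -0.76 to 0.60. For Grik5 the difference was 0.24 (95% interval -0.27 to 0.75). Gabrb1 had 1.16 with an interval of -0.07 to 2.38, the widest among the 12, and its ventral arrays, 2500.4 and 6603, were far apart. The median difference of the 12 probe sets was 0.48, compared with -0.02 over all tested probe sets, and several of the 12 are probe sets of the same gene.

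**Figure D3:**
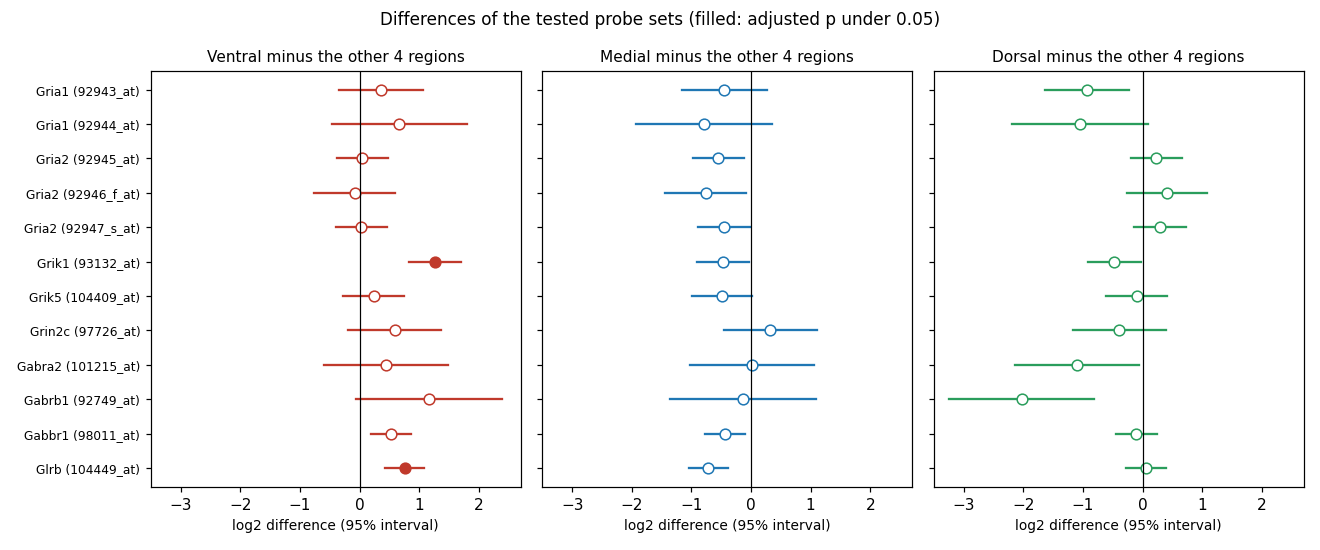
Log2 differences of the 12 tested receptor probe sets, as the named piece minus the mean of the other 4 regions, with 95% intervals from limma on the x axis and filled points where the adjusted p is under 0.05. The filled points are Grik1 (1.27) and Glrb (0.75) in the ventral piece, and in the medial piece 10 of the 12 points lie below 0.

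Besides the tested probe sets, 3 low ones stood out in the ventral piece, and they were singled out after their values were seen. Gabra3 encodes an alpha subunit of GABA-A receptors in the fetal brain. It read 1171 and 1022 in the ventral piece, against 169.7 to 580.2 on the 8 arrays of the other regions, all under the floor. Gabrg1, a gamma subunit gene, read 707 and 1034 in the ventral piece, against -107.1 to 360.0 in the other regions. Grid1 read 1471 and 1221 in the ventral piece, against -147.1 to 859 in the other regions, with medial values below 0, and hemisphere replicate 2, at 1314, exceeded ventral replicate 2. None of the 3 met the filter, and no fold is given with the other arrays at background. When all probe sets were fitted without a filter, limma's adjusted p was 0.00218 for Gabra3, 0.37 for Gabrg1 and 0.104 for Grid1. All 8 arrays of the other regions were at the floor for Gabra3 and Gabrg1, and 7 for Grid1. Values set to the floor have no spread, so these p-values cannot serve as support for a ventral rise. Counting all values as deposited, 6 of the 33 receptor probe sets had both ventral arrays above all 8 arrays of the other regions (Grik1, Glrb, Gabbr1, Gabra3, Gabrg1 and Grid1), against 7.20% of all probe sets. For 0 of the 33 were both ventral arrays below them, against 8.62%.

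**Figure D4:**
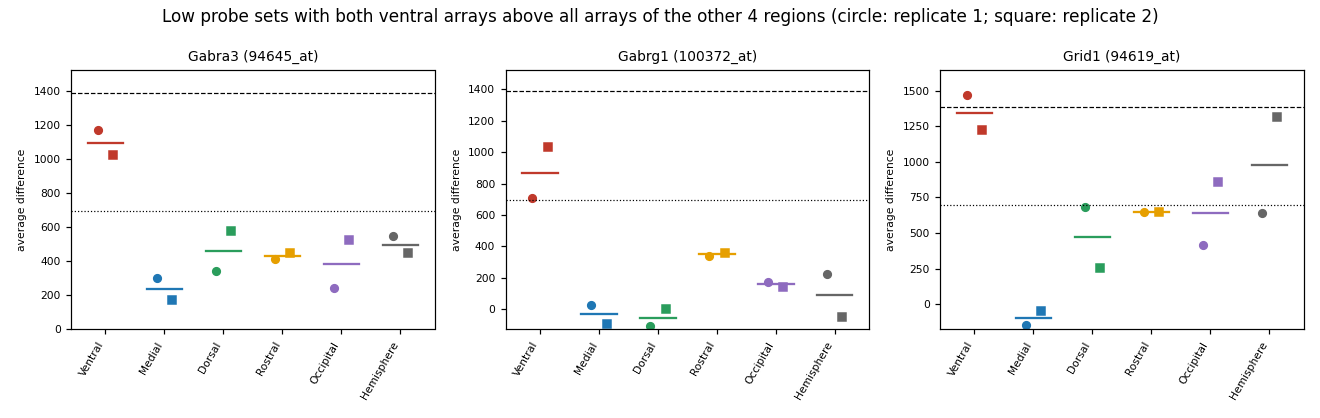
Average difference (linear scale) by group of Gabra3, Gabrg1 and Grid1, with circles for replicate 1, squares for replicate 2, a bar at the group mean, and the floor (693.5) and limit (1387) as dotted and dashed lines. The ventral arrays are above the floor for all 3 genes, while the other regions' arrays lie under it except occipital replicate 2 for Grid1, at 859.

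Promoters are shown for the genes whose ventral arrays both exceeded all arrays of the other regions. Of these 6 genes Glrb, Gabbr1, Gabrg1 and Gabra3 have entries in RefSeq's table of promoters, which holds 250 bases before and 50 after each gene's start, and the 3 with a single entry are printed 5′ to 3′ on the gene's strand. Capitals mark matches on either strand to TAATTA, the core that many homeodomain factors bind, or to GGGCGG, the GC box of Sp factors.
Glrb promoter (GRCm38.p6, chr3:80913611-80913910, minus strand): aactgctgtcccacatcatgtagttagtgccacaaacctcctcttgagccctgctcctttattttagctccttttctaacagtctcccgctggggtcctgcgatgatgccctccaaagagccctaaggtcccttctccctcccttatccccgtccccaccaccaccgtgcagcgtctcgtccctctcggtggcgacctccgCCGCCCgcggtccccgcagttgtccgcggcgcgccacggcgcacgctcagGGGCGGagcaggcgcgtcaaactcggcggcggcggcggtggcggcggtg
Gabbr1 promoter (GRCm38.p6, chr17:37045716-37046015, plus strand): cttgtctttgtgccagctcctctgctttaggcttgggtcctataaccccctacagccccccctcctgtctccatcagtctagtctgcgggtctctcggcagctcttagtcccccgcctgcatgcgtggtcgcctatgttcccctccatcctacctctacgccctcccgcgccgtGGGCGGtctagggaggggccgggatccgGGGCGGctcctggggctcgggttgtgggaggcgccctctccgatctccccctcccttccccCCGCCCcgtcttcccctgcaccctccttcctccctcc
Gabrg1 promoter (GRCm38.p6, chr5:70842568-70842867, minus strand): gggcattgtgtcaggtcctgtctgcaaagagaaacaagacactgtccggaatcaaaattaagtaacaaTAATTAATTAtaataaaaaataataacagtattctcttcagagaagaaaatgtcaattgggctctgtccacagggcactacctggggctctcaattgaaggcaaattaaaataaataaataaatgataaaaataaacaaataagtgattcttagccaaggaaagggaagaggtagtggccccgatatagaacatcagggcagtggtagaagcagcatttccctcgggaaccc
The Glrb and Gabbr1 promoters are rich in G and C (65.7% and 67.3%) and hold 2 and 3 matches to GGGCGG, which 35.7% of the 32851 promoters of this length contain. The Gabrg1 promoter has 38.3% G and C and holds 2 overlapping matches to TAATTA, which 5.29% of the promoters contain. The matches are a description of these letters only.

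Cell marker genes rose in some lists and fell in others in the ventral piece, where 4.25% of all tested probe sets rose and 5.54% fell. Of the 11 GABAergic cell genes tested, 6 rose and 0 fell in the ventral piece by limma, and the list's summed average difference was 138595 and 123016 on the ventral arrays, against 25993 to 84917 in the other regions. Of the 11 pan-neuronal genes tested 9 rose and 0 fell, with sums of 185628 and 191333 in the ventral piece, against 104801 to 151481 elsewhere. The pallial list holds projection neuron genes together with Eomes and Neurog2. Of its 7 tested genes 0 rose and 4 fell (Eomes, Neurog2, Fezf2 and Neurod6). Its sums were 41658 and 53656.5 in the ventral piece, against 76807 to 109929 elsewhere. Of 14 progenitor and cell cycle genes 0 rose and 7 fell, with sums of 98982 and 97969.6, against 104265 to 138062. Of 3 tested astrocyte and oligodendrocyte genes 0 rose and 0 fell, and the list summed to 7774 and 7852 in the ventral piece, against 3466 to 5568, with Gfap, S100b and Slc1a2 never above the floor. Of the 8 tested genes of blood, vessels, meninges, microglia and choroid plexus 0 passed in either direction. That list summed to 102489 and 92125 in the ventral piece, against 88252 to 103771, and 7 of its 20 genes on the array never exceeded the floor, among them Pecam1, Ptprc and Aif1. The part of these cells in the values of Grik1, Glrb and Gabbr1 was not tested.

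In the medial piece 10 of the 12 tested probe sets, several of them of the same gene, had lower estimates. The median difference over all tested probe sets was 0.02. The mean of the other regions includes the ventral piece, where Glrb, Gabbr1 and Grik1 were highest. Of the 12, 0 passed the test. Glrb came nearest, at 2189 ± 168 (SD, n = 2) in the medial piece and 3661 ± 832 (SD, n = 8) in the other regions, a log2 difference of -0.71 ± 0.15 (SE, limma adjusted p = 0.0588). Without the rostral and occipital arrays it was -0.90 ± 0.16 (limma adjusted p = 0.0422), and against the other regions without the ventral piece it was -0.56 (0.312). Gabbr1 averaged 14272 ± 1565 (SD, n = 2) in the medial piece and 19541 ± 3432 (SD, n = 8) in the other regions (log2 -0.44 ± 0.15 SE, limma adjusted p = 0.221). With replicate number as a block, which does not pair the rostral and occipital arrays, Glrb and Gabbr1 passed. The 3 Gria2 probe sets differed by -0.46, -0.55 and -0.76, with limma adjusted p between 0.222 and 0.320.

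By limma 0 of the 12 passed in the medial piece, against 1.27% of all tested probe sets. At an unadjusted p under 0.05, 6 were lower and 0 higher (Glrb, Gabbr1, Grik1 and the 3 of Gria2), against 7.12% and 6.77% of all. Grik1 met the filter through its ventral arrays alone. Its medial arrays were set to the floor, so it could only be lower here. The median of the 12 was -0.46, compared with 0.02 over all tested probe sets. In the same piece 4 of 11 GABAergic and 2 of 11 pan-neuronal genes fell. There 3 of 14 progenitor and cell cycle genes rose, as did 1 of 7 genes of the pallial list, Eomes. The part of these genes in the receptor values was not tested. The values as deposited put both medial arrays below all 8 others for 5 of 33 receptor probe sets (Glrb, Gabbr1, Grik5, Grid1 and 92945_at of Gria2), against 3.78% of all probe sets. Both were above all others for 0 of 33, against 3.60%.

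The dorsal piece was low for Gabrb1, Gabra2 and Gria1, while Gria2 had its highest mean there on 2 of its 3 tested probe sets. Gabrb1 averaged 609 ± 68.4 (SD, n = 2) in the dorsal piece and 3246 ± 1873 (SD, n = 8) in the other regions, a log2 difference of -2.03 ± 0.54 (SE, limma adjusted p = 0.274). Both dorsal arrays were set to the floor, so the size depends on it: it was -2.22 with the floor at 0.5 times and -1.03 with the floor at 2 times its value. Gabra2 averaged 1249 ± 64.1 (SD, n = 2), against 2904 ± 1295 (SD, n = 8), with -1.10 ± 0.46 (adjusted p = 0.695). For both genes the dorsal replicates agreed closely and the spread came from the other pieces. Gria1 on 92943_at averaged 4317 ± 1385 (SD, n = 2), against 8354 ± 2582 (SD, n = 8), with -0.93 ± 0.31 (adjusted p = 0.463). With replicate number as a block, which does not pair the rostral and occipital arrays, it passed (limma adjusted p = 0.0483). The other Gria1 probe set, 92944_at, differed by -1.05 ± 0.50 (SE, limma adjusted p = 0.834) without the block. By limma without the block 0 of the 12 passed, against 0.274% of all tested probe sets. At an unadjusted p under 0.05, 4 were lower and 0 higher (Gabrb1, Gabra2, 92943_at of Gria1 and Grik1), against 3.89% and 2.73%. Grik1 met the filter through its ventral arrays alone. Its dorsal arrays were set to the floor, so it could only be lower here. Both dorsal arrays lay below all 8 others for 3 of 33 receptor probe sets (Gabrb1, Gabra2 and 1 of Grik2), against 2.13% of all probe sets, and above them for 0, against 2.00%. Of the 11 GABAergic genes 1 rose and 2 fell in the dorsal piece, and their part in these values was not tested.

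For the rostral piece, the occipital piece and the whole hemisphere, limma passed 0 of the 12 receptor probe sets, as it passed 0 of all 5832, and 0 of the 12 reached an unadjusted p under 0.05. The share at that unadjusted p was 1.78% of all tested probe sets for the rostral piece, 2.16% for the occipital piece and 4.75% for the hemisphere against the mean of the 5 regions. For 0 of the 33 did both rostral arrays lie above or below all arrays of the other regions, against 0.845% and 0.781% of all probe sets, and for 0 both occipital arrays, against 1.67% and 1.98%. Differences of the hemisphere from the mean of the regions ran from -0.44 for 92944_at of Gria1 to 0.25 for Gabrb1, and each turned sign without 1 of the 2 hemisphere arrays, to 0.60 and -0.35. Over all 6 groups together, limma's F-test passed 0 of the 12, against 2.37% of all, and 2 at an unadjusted p under 0.05, against 14.3%. These were Grik1 (limma adjusted p = 0.0738) and Glrb (0.0928). Among the 5 regions the highest mean of the 12 was ventral for 7, dorsal and occipital for 2 each and rostral for 1. The lowest mean was medial for 7 and dorsal for 5. Such counts are not given over all tested probe sets, so they do not set the receptor genes apart. Several of the 12 are probe sets of the same gene, and the filter fixed the ventral place of Grik1.

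Genes that supply the transmitters or hold the receptors were compared in the same fit, where 4.25% of all tested probe sets rose and 5.54% fell in the ventral piece. In that piece, of 9 tested genes of transmitter supply and clearance 3 rose and 0 fell. They were the vesicular GABA transporter Slc32a1 (log2 1.97), the GABA-synthesising enzyme Gad1 (1.87) and the glutamate transporter Slc1a6 (1.21). Slc1a6 averaged 1911 ± 205 (SD, n = 2) in the ventral piece and 800 ± 187 (SD, n = 8) in the other regions. With that lower mean and its SD, none of the 8 arrays of the other regions can exceed the limit, while both ventral arrays did. Among the regions Slc1a6 therefore met the filter through its ventral arrays alone, as Grik1 did. Its hemisphere values are not given here. Its place among the 3 that rose thus depends on the filter and cannot serve as support for a ventral rise. Of 23 genes of receptor scaffolds, trafficking and auxiliary proteins 3 rose and 0 fell. These were Nsf (1.68), the fusion ATPase that also binds GluA2, Hap1 (1.42), which takes part in the transport of GABA-A receptors, and Gphn (0.67 ± 0.15 SE, limma adjusted p = 0.0223), which encodes gephyrin, the scaffold that binds the product of Glrb. Gphn averaged 5575 ± 249 (SD, n = 2) in the ventral piece and 3550.3 ± 626 (SD, n = 8) in the other regions.

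Of 3 tested chloride transporter genes the anion exchanger Slc4a3 (1.09) rose and 0 fell. Of 13 kinase and calcium sensor genes 2 rose and 0 fell, the protein kinase C gene Prkcb (1.58) and the calcineurin subunit gene Ppp3ca (0.48). The medians of the 4 lists were 0.77, 0.30, 0.29 and 0.42, compared with -0.02 over all tested probe sets. In the medial piece Gad1 (-1.75) and Slc32a1 (-1.67), Nsf (-1.53) and Hap1 (-1.34), and Prkcb (-1.06) fell, and 0 genes of the 4 lists rose by limma. In the dorsal piece Gad1 fell (-1.66) and no other gene of the 4 lists passed. Some of these genes are also in the marker lists.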

How the data were processed

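The authors hybridised biotin-labelled cRNA from poly(A)+ RNA to a mouse Affymetrix GeneChip, per the labels' protocols, and deposited 1 average difference per probe set and array, an intensity on a linear scale. Trimming 2% of values left array means of 2501.6 to 2501.9, so the deposited values were already on one scale and were not rescaled. Software and version are not given in the sources used here. Of 12488 probe sets 66 controls were left out. Gene symbols came from the platform annotation.

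Values were set to at least 693.5 before log2. Probe sets above 1387 on at least 2 arrays were tested (5832) by limma 3.58.1 under R 4.3.3. A single model held the 6 group means, with 6 residual and 2.86 prior degrees of freedom, and Benjamini-Hochberg adjustment. Equal replicate numbers were not used as a block. Deviations of same-numbered arrays correlated at r = -0.06 between the rostral and occipital pieces. In the other 14 of 15 pairs of groups r was 0.103 to 0.562. A difference shared by same-numbered arrays therefore stays in the spread of the model used. With the block, limma called 938 of all tested probe sets in the ventral piece, in place of 571. The procedure was first tested on simulated data.

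The members and the gene lists were chosen with earlier results of these data known. All members are accounted for. Those called or above background in all groups are given by array, others by range or count, except Gabra2 and Gabrb1, given by array after their values were seen, and list genes where called. Values of members at background were chosen after they were seen. A list gene is represented by its probe set with the highest mean. A list's summed level counts values below 0 as 0. Alternatives were other floors, limits and filters, quantile normalization, an arcsinh scale, a robust variance trend, a block for replicate number, no rostral or occipital arrays, a reference without the ventral piece, and each array left out. Promoters are RefSeq's (GRCm38.p6).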

Additional observations from a re-analysis of the deposited data

Results flagged for a closer look

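Between the rostral and the occipital piece, 2 GABA-A receptor genes pointed opposite ways in the replicates, by more than 1 log2 unit each way. For Gabra2 rostral minus occipital was 1.65 in replicate 1 and -1.57 in replicate 2, and for Gabrb1 it was 1.31 and -1.65. With 1 array per piece and replicate the difference between the replicates was not tested.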

How the results depend on the processing

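The 2 rises in the ventral piece depended on few arrays. Grik1 met the filter through its ventral arrays alone, and 6 of its 8 arrays of the other regions were at the floor. The number of alternatives in which its call held is therefore no support for a ventral rise. Of 21 alternatives the call of Glrb held in 19, with log2 differences of 0.68 to 0.86 and adjusted p of 0.00939 to 0.153, and that of Grik1 in 18 of 20, with 0.39 to 1.85 and 0.00406 to 0.0783. The count of 2 receptor probe sets called there became 1 with the stricter filter, which leaves Grik1 untested, and ran from 0 to 2 with single arrays left out, with 1 without ventral replicate 1 and 0 without ventral replicate 2. With the floor at 2 times it was again 2, but Gabbr1 passed (0.0469) in place of Grik1, and it was 3 with trended and robust variances, where Gabbr1 was added (0.0301). Without a filter it was 3, because Gabra3 passed, whose 8 arrays of the other regions are all at the floor. In the medial piece the count of 0 became 1 (Glrb) with the floor at 2 times and without the rostral and occipital arrays, and ran from 0 to 1 with single arrays left out, with 1 without either hemisphere array. Over the 6 groups the count of 0 became 1 with no filter (Gabra3), 1 on the arcsinh scale (Grik1) and 1 without the rostral and occipital arrays (Grik1). With replicate number as a block the counts were 3 in the ventral piece (Gabbr1 added, adjusted p = 0.0098), 2 in the medial (Glrb and Gabbr1), 1 in the dorsal (Gria1) and 2 over the 6 groups (Gria1 and Grik1), and 0 elsewhere, but the numbers do not pair the rostral and occipital arrays. The rostral, occipital and hemisphere counts were 0 in all alternatives run for them. With a limit of 1 times the floor 18 receptor probe sets were above background in at least 1 group, in place of 11. Among the 6 differences of tested probe sets that passed in at least 1 setting, 0 changed sign in the alternatives run for them, and Gabra3 was fitted only without the filter. Uncalled differences near 0 did change sign. In the ventral piece, with single arrays left out, Gria2 ran from -0.25 to 0.35 on 92945_at, from -0.41 to 0.25 on 92946_f_at and from -0.24 to 0.30 on 92947_s_at, and 92946_f_at read 0.074 without the rostral and occipital arrays. In the hemisphere Gabrb1 ran from -0.35 to 0.84 and 92944_at of Gria1 from -1.48 to 0.60 with single arrays left out. The cause was not tested. Depth is not defined for arrays, and with 2 arrays per group small differences can be missed.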
